A study of Mus musculus with 3 samples.

Results

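The 9 genes described here are the 4 Notch receptors *Notch1*, *Notch2*, *Notch3*, and *Notch4* and 5 of the genes that Notch activity is known to switch on, *Hes1*, *Hey1*, *Hey2*, *Heyl*, and *Nrarp*. They were taken by symbol from the 28692 genes counted in scRNA-Seq libraries of whole lung, and each symbol was found once. The lungs came from 3 C57BL/6 mice (mice 2, 3, and 4) held in room air (RA) from day 1 to day 14 of life and taken at P14, during alveolar growth. No treated, mutant, or sorted sample was in the series, so the mice are replicates of 1 condition and the comparisons made were between cell types within these lungs. Freshly dissociated cells of the whole lung were loaded without a sort, so each type entered at the share that dissociation left.

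Notch receptors are single-pass membrane proteins that are activated by a ligand on a neighboring cell. Ligand binding exposes the receptor to a pair of proteases in turn, and the freed intracellular part enters the nucleus, where it joins the DNA-binding protein RBPJ and Mastermind proteins and turns on target genes. *Hes1*, *Hey1*, *Hey2*, and *Heyl* encode basic helix-loop-helix repressors, and *Nrarp* encodes an ankyrin-repeat protein that dampens Notch activity. In blood vessels, NOTCH1 and NOTCH4 are known as the receptors of ECs and NOTCH3 as the receptor of mural cells, the pericytes and smooth muscle cells (SMCs) that wrap the endothelium.

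Levels are given as CPM, the UMIs of a gene in each 1000000 UMIs of all genes in the same cells. A UMI is a random tag that marks 1 captured transcript, so copies made by amplification are counted once. Because these libraries read only the 3' end, a transcript gives the same number of UMIs whatever its length. The libraries held 22476491 to 25192427 UMIs in 3034 to 3475 cells, and 7642 of 9644 cells passed the minimum of 200 genes and the limit of 20% on mitochondrial UMIs. Their median was 6033.5 UMIs. The 3 libraries shared 12 cell barcodes in all. Mouse 3 stood apart, with 1432 immune cells against 697 and 896 in mice 2 and 4, and with a chi-square per degree of freedom of 38.1 and 31.6 against them, where mice 2 and 4 differed by 9.12. Cells were clustered without the 9 genes and without 56 other genes of the pathway, and clusters were named from markers. The types and the levels come from the same cells, so a test between types shows how steady a difference was over 3 mice and is not independent evidence that the types exist. ECs made up 960 cells, epithelial cells 1306, stromal cells 1538, and immune cells 3025, and 813 cells stayed unnamed. Among them, 452 droplets with a median of 843.5 UMIs and 0.561% mitochondrial UMIs carried EC-type RNA. The club-like cells (97 cells, median 753 UMIs) were a low-UMI cluster as well. Low-UMI sub-clusters also lay within the *Aplnr*-type ECs (70 cells), *Car4*-type ECs (73 cells), pericyte-like cells (43 cells), and *Col14a1*-type fibroblasts (54 cells, with the *Col13a1*-type markers *Inmt* and *Tcf21* among their leading genes). Counts of genes in ECs are given with and without these sub-clusters where that changed a call.

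In the GENCODE M21 annotation of GRCm38, *Notch1* lies on chromosome 2 from 26457903 to 26516663 on the minus strand and *Nrarp* lies on the same chromosome from 25180758 to 25183339 on the plus strand. *Notch2* lies on chromosome 3 from 98013527 to 98150361 (plus strand) and *Hey1* on chromosome 3 from 8663359 to 8667256 (minus strand). *Notch3* lies on chromosome 17 from 32120820 to 32166852 (minus strand) and *Notch4* on chromosome 17 from 34564268 to 34588503 (plus strand). *Hes1* lies on chromosome 16 from 30064384 to 30067796 (plus strand), *Hey2* on chromosome 10 from 30832359 to 30842801 (minus strand), and *Heyl* on chromosome 4 from 123233556 to 123249875 (plus strand). *Hes1*, *Hey1*, *Hey2*, and *Heyl* overlap no other annotated gene. *Notch1*, *Notch3*, *Notch4*, and *Nrarp* each overlap at least 1 gene on the opposite strand, and *Notch1* and *Notch2* overlap *Mir6996* and the gene models *Gm42819* and *Gm42820*, respectively, on the same strand, so reads of these shared stretches cannot be given to 1 gene with certainty.

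RefSeq promoter sequences (GRCm38.p6, 250 bases before the start and 50 after it) were at hand for 6 of the 9 genes. They were searched on both strands for TGGGAA, the core that RBPJ binds, and for CACGTG, a palindromic E box that HEY proteins can bind. The promoters of *Hey2*, *Nrarp*, and *Notch3* are shown, as 1 target of arterial and mural cells, 1 target of arterial cells and pericytes, and the mural receptor. Each run gives the 250 bases before the start and the first 3 bases of the transcript, 5′ to 3′ on the strand of the gene, with motif matches in capitals.
*Hey2*, chr10:30842781-30843033, minus strand: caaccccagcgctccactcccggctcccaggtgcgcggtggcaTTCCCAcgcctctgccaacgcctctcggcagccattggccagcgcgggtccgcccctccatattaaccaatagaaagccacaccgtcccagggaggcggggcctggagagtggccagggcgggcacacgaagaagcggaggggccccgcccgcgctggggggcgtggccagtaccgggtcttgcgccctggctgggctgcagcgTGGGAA
*Nrarp*, chr2:25180508-25180760, plus strand: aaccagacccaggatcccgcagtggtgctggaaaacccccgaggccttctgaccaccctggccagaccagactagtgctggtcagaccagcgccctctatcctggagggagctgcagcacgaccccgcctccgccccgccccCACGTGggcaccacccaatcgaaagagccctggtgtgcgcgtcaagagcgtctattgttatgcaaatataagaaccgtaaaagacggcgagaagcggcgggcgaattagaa
*Notch3*, chr17:32166888-32167140, minus strand: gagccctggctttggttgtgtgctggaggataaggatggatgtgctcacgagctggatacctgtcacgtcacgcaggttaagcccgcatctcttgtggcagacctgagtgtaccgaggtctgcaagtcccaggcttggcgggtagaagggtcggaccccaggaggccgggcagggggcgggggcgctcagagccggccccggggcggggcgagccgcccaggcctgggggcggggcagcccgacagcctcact
*Hey2* held TGGGAA at the RefSeq start site, 3 bases before the first transcribed base, and again on the opposite strand (printed as TTCCCA), 207 bases before it. The GENCODE *Hey2* gene reaches to 30842801, within the printed window, so its start lies upstream of the match at the RefSeq start. The RefSeq and GENCODE starts of *Notch3* differ as well. *Nrarp* held CACGTG 108 bases before the start and no TGGGAA in this window. Of the 6 genes, 1 held TGGGAA and 1 held CACGTG, against 25.6% and 7.15% of all 32851 promoter windows of 300 bases. A match describes these letters only.

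*Notch1* was the most widely detected receptor, with 6906 UMIs in 2355 of the 7642 cells, and 59.8% ± 2.93% of a mouse's *Notch1* UMIs lay in ECs (mean ± SD, n = 3 mice). Arterial-like ECs held 698, 815, and 682 CPM in mice 2, 3, and 4, above every other type. *Aplnr*-type capillary ECs followed with 384, 429, and 399 CPM. The next levels, 328 ± 36.3 CPM in *Car4*-type ECs, 309 ± 14.8 in venous-like ECs, and 303 ± 20.8 in pericyte-like cells (n = 3 mice each), overlapped between mice and gave no order. Among immune cells, *Notch1* was highest in neutrophil-like cells, at 141, 175, and 186 CPM, and B-cell-like cells held 20.5 ± 2.71 CPM. *Notch1* was thus detected in all 22 types that had at least 10 cells in at least 2 mice, with the lowest mean of 14.6 CPM in AT1-like cells. In arterial-like cells (median 7055 UMIs), 92.7% ± 0.662% of cells had a *Notch1* UMI, and in B-cell-like cells (median 3960 UMIs) 8.31% ± 1.60%. With each cell thinned to 1000 UMIs these shares were 50.3% and 2.21%.

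*Notch4* was the most endothelial receptor, with 85.1% ± 1.57% of its 2232 UMIs in ECs. It was at 321, 316, and 306 CPM in arterial-like ECs, at 203, 221, and 197 in *Aplnr*-type, at 166, 139, and 177 in *Car4*-type, and at 111, 122, and 77.9 in venous-like ECs of mice 2, 3, and 4. The 4 groups did not overlap between mice, so the order arterial-like, *Aplnr*-type, *Car4*-type, venous-like held in every mouse. Lymphatic-like cells held 76.0 CPM in the 1 mouse with enough cells. Among named types outside ECs the highest mean was 29.1 ± 22.7 CPM in dendritic-like cells, a value that ranged widely between mice, and 3 named types held no *Notch4* UMI.

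*Notch2* was distributed the other way. Only 2.78% ± 1.06% of its 3152 UMIs lay in ECs, against 36.9% ± 11.5% in immune, 29.3% ± 3.97% in stromal, and 28.6% ± 7.63% in epithelial cells. Immune cells held the largest share only in mouse 3 (50.1%), with 28.9% and 31.7% in mice 2 and 4, and their mean without mouse 3 was 30.3%. Pericyte-like cells held 178, 148, and 167 CPM and neutrophil-like cells 121, 161, and 146, and the 2 groups overlapped. B-cell-like cells held 85.0, 96.4, and 85.9 CPM, AT2-like cells 38.9, 40.6, and 39.6, and the 4 EC subtypes had means of 5.78 to 10.1 CPM. *Notch2* was below 12 CPM in each EC subtype of each mouse.

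*Notch3* was highest in mural cells, and 94.7% ± 1.95% of its 3720 UMIs lay in stromal cells. Pericyte-like cells held 1040, 1200, and 1010 CPM, a mean that no type exceeded for any of the 4 receptors. SMC-like cells held 249, 372, and 309 CPM. A mural sub-cluster of 125 cells that scored on both the SMC and the pericyte markers held 1100, 948, and 1180 CPM, overlapping pericyte-like cells. It is called unnamed mural here, and *Notch3*, *Parm1*, *Gpc6*, *Wisp2*, and *Heyl* led it. As *Notch3* and *Heyl* are among its leading genes, its levels are given as a description, with no test of it against another type. Among other stromal cells, *Notch3* was at 49.1 ± 14.2 CPM in *Col14a1*-type, 15.1 ± 3.86 in myofibroblast-like, and 14.0 ± 9.47 in *Col13a1*-type cells, and it was at 0.855 ± 0.296 CPM in B-cell-like cells. Of pericyte-like cells (median 6368 UMIs), 78.0% ± 2.35% had a *Notch3* UMI, against 0.376% ± 0.140% of B-cell-like cells. That share mixes 2 depths. All 91 cells of the larger pericyte-like sub-cluster (median 7865 UMIs) had a *Notch3* UMI, and 13 of 43 had one in the low-UMI sub-cluster (median 775 UMIs).

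*Notch3* in ECs rested on few cells. *Aplnr*-type ECs held 67 *Notch3* UMIs in 10 of 499 cells, with 63 of them from 7 cells of the low-UMI sub-cluster. The same sub-cluster held 214 UMIs of the mural marker *Pdgfrb* and 402 of *Postn*, in 11 and 10 of its 70 cells. Of the 7 *Notch3*-positive cells, 3 were marked by their scores as likely doublets (droplets with more than 1 cell). The 6 stromal markers fixed for naming summed to 192 to 865 CPM in *Aplnr*-type ECs and the 8 pericyte markers to 93.9 to 320, with none of either list at 0, against 15000 to 16600 CPM of pericyte markers in pericyte-like cells. The larger *Aplnr*-type sub-clusters, of 257 and 172 cells, held 3 and 1 *Notch3* UMIs.

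**Figure D1:**
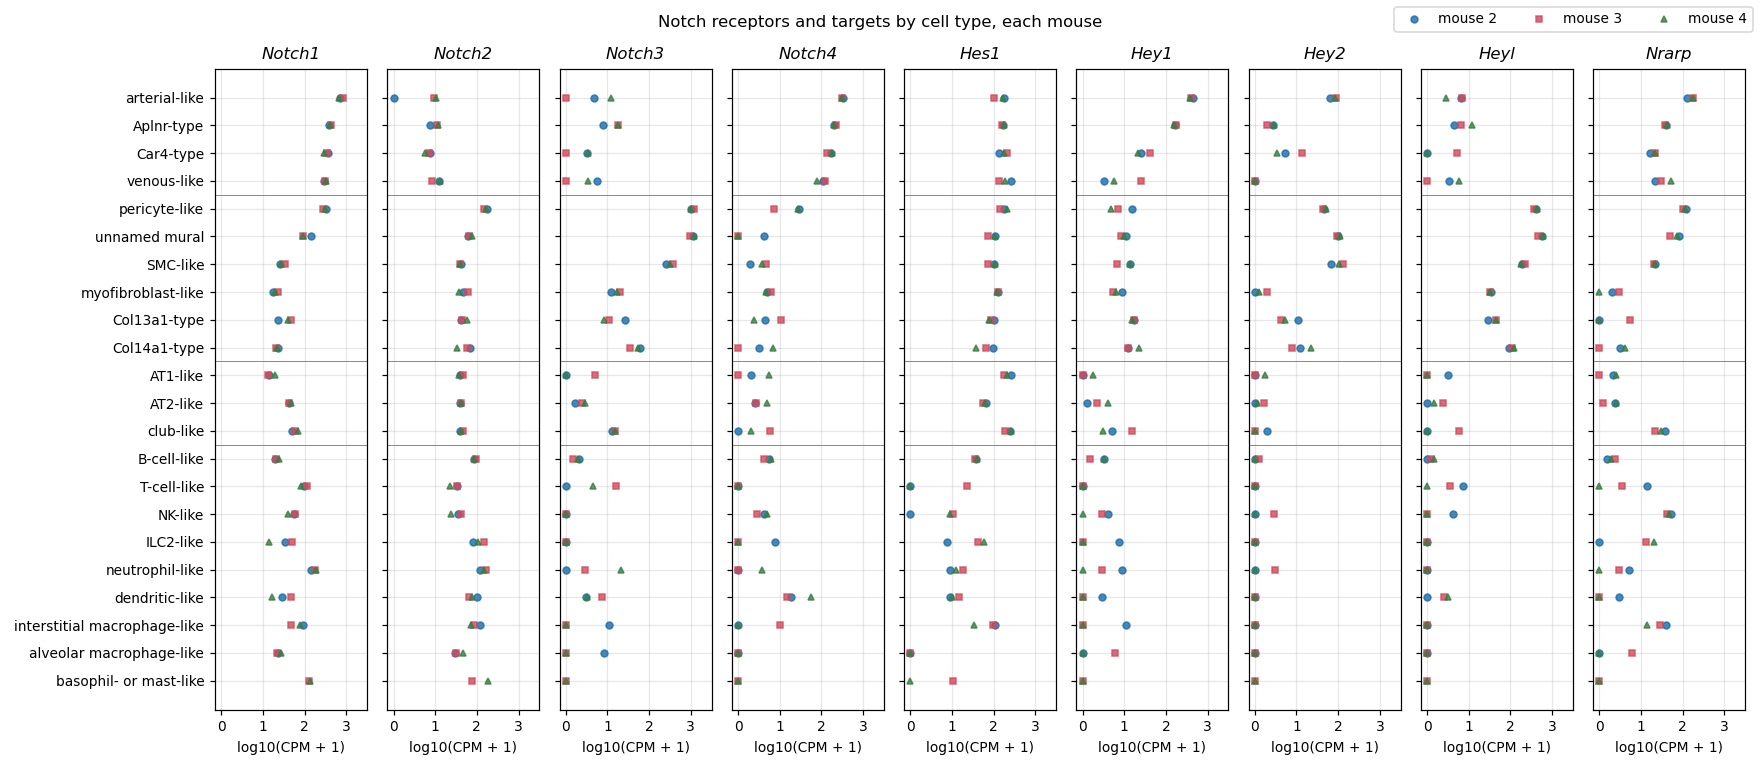
Level of each of the 9 genes (columns) in 22 cell types (rows) as log10(CPM + 1), with 1 symbol per mouse and type (at least 10 cells). Lines divide endothelial, stromal, epithelial, and immune types. *Notch4* and *Hey1* stand out in the top rows, *Notch3* and *Heyl* in the mural rows, and *Hes1* across most non-immune rows.

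The leading receptor was the same in all 4 EC subtypes and differed between types of the other classes. *Notch1* made up 63.7% to 72.7% and *Notch4* 24.3% to 32.7% of receptor UMIs in the 4 EC subtypes (means over 3 mice). *Notch3* made up 68.9% ± 3.86% in pericyte-like, 81.5% ± 2.04% in SMC-like, and 86.2% ± 1.75% in unnamed mural cells. *Notch2* made up 77.6% ± 3.06% in B-cell-like, 69.3% ± 7.42% in AT1-like, and 54.6% ± 5.25% in myofibroblast-like cells. Pericyte-like cells kept a larger *Notch1* part, 19.3% ± 1.77%, than SMC-like cells, 7.43% ± 0.365%, and these shares did not overlap between mice. AT2-like cells were divided between *Notch1* (48.6% to 51.0% in the 3 mice) and *Notch2* (42.6% to 47.8%), and neutrophil-like cells between *Notch1* (52.7% ± 1.08%) and *Notch2* (45.0% ± 3.35%). These are shares of captured 3' ends, and genes can differ in how well their 3' ends were captured.

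**Figure D2:**
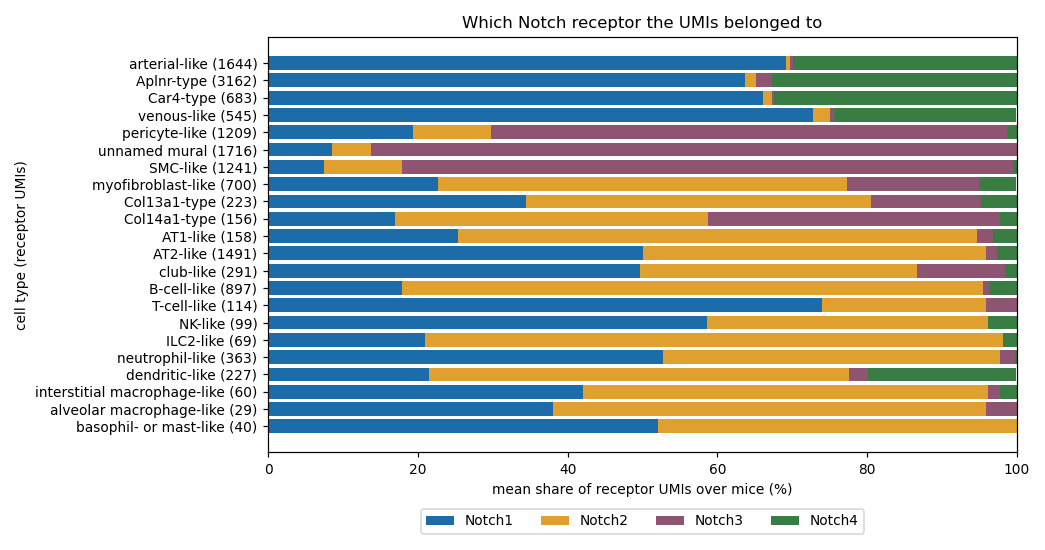
Share of the UMIs of the 4 receptors that belonged to each receptor, as the mean over mice in percent, by cell type, with the receptor UMIs of the type in parentheses. Bars of the 4 EC subtypes are mostly *Notch1* and *Notch4*, those of the 3 mural types mostly *Notch3* (68.9% to 86.2%), and those of most other types *Notch1* and *Notch2*.

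Among the targets, *Hey1* followed arterial-like and *Aplnr*-type ECs. It was at 457, 410, and 386 CPM in arterial-like ECs and at 162, 173, and 154 in *Aplnr*-type ECs of mice 2, 3, and 4. *Car4*-type ECs held 23.7, 41.5, and 21.0 CPM (14 of 40 UMIs in 1 cell) and venous-like ECs 2.27, 23.9, and 4.72. The first 3 groups did not overlap, and *Car4*-type and venous-like ECs did. ECs held 78.9% ± 1.61% of all *Hey1* UMIs, and B-cell-like cells were at 1.69 ± 1.00 CPM.

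*Hey2* was found in mural cells and in arterial-like ECs. SMC-like cells held 67.2, 131, and 105 CPM, and unnamed mural cells 96.5, 92.6, and 108, with overlap. Arterial-like ECs followed at 63.1, 87.2, and 81.7 CPM and pericyte-like cells at 45.9, 43.1, and 49.4. Stromal cells held 76.3% ± 1.51% and ECs 19.6% ± 0.891% of the 696 *Hey2* UMIs. No *Hey2* UMI was found in 107 venous-like cells, which allows a level of up to 2.34 CPM (3 counts over the type, counting error only), and *Aplnr*-type ECs held 8 UMIs in 499 cells.

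*Heyl* was highest in mural cells, and 94.4% ± 1.68% of its 2329 UMIs lay in stromal cells, fibroblasts included. Unnamed mural cells held 566, 456, and 589 CPM, pericyte-like cells 422, 375, and 441, SMC-like cells 191, 217, and 183, and *Col14a1*-type cells 90.8, 110, and 124. These 4 groups did not overlap between mice. *Col13a1*-type (39.1 ± 9.44 CPM) and myofibroblast-like cells (32.5 ± 1.38 CPM) overlapped, and no EC subtype had a mean above 6.67 CPM.

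*Nrarp* was shared by arterial-like ECs and pericyte-like cells. It was at 123, 172, and 173 CPM in arterial-like and at 118, 98.4, and 114 in pericyte-like cells, with no overlap. Unnamed mural cells held 66.6 ± 16.5 CPM, NK-like cells 45.9 ± 5.22, *Aplnr*-type ECs 39.6 ± 2.10, and venous-like ECs 33.7 ± 16.3. These 4 means stood in an order in which each type overlapped the next. In *Col13a1*-type and myofibroblast-like fibroblasts *Nrarp* was near 1 CPM (1.45 ± 2.51 and 0.983 ± 0.949).

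*Hes1* was the broadest target, with 33.1% ± 5.83% of its 6611 UMIs in epithelial, 29.0% ± 1.54% in stromal, and 24.8% ± 0.985% in ECs. These shares also follow the number of UMIs in each class. In level the order was reversed, at 169 ± 14.3 CPM in ECs, 108 ± 9.64 in stromal, and 97.6 ± 14.9 in epithelial cells. Club-like cells held 241, 186, and 255 CPM and AT1-like cells 257, 172, and 214, and from these down to arterial-like ECs (175, 101, and 167) every named type overlapped its neighbor in the order of means. The club-like values come from a low-UMI cluster (median 753 UMIs) with 15 cells in each of mice 2 and 3. AT2-like cells were lower, at 63.7, 54.2, and 62.6 CPM, as were B-cell-like cells at 37.2, 34.3, and 39.2 and neutrophil-like cells at 8.08, 17.7, and 11.3.

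UMIs were then summed per mouse and class, and ECs were compared with the other 3 classes in an edgeR quasi-likelihood fit over 14209 genes. *Notch4* in ECs (198 ± 7.27 CPM) was above epithelial cells by 5.86 on the log2 scale (SE 0.23, adjusted p = 6.49e-12), above stromal cells by 5.30 (SE 0.21, adjusted p = 1.70e-11), and above immune cells by 4.83 (SE 0.22, adjusted p = 2.63e-11; edgeR with Benjamini-Hochberg adjustment). *Notch1* in ECs (432 ± 25.0 CPM) was higher by 2.89, 3.21, and 3.04, and *Hey1* (158 ± 8.53 CPM) by 5.86, 4.05, and 6.50, in the same order of classes. *Nrarp* was higher by 3.18, 1.83, and 3.08. *Notch2* was lower in ECs than in each other class, by -2.63, -2.65, and -3.47. All of these had edgeR adjusted p-values of 1.41e-06 or less, and the classes did not overlap between mice.

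Against stromal cells, *Notch3* in ECs was lower by -4.60 (SE 0.19, edgeR adjusted p = 2.39e-11), *Heyl* by -4.76 (SE 0.23, adjusted p = 1.26e-10), and *Hey2* by -1.19 (SE 0.22, adjusted p = 0.000233). The stromal sums included the unnamed mural cells, which *Notch3* and *Heyl* led. Those cells gave 1475 of the 3528 stromal *Notch3* UMIs, 741 of the 2203 of *Heyl*, and 134 of the 531 of *Hey2*. Against immune cells, which held 3 *Hey2* UMIs to 137 in ECs, the ratio of pooled *Hey2* CPM was 65.8 (exact 95% interval of counting error, 22.0 to 323). *Hes1* was higher in ECs than in stromal cells by 0.54 (adjusted p = 0.00108) and than in immune cells by 2.42 (adjusted p = 4.17e-10), both by edgeR. In ECs against epithelial cells all 9 members were called, 8 higher and 1 lower, in a comparison in which 66.3% of all genes were called at adjusted p under 0.05 (33.7% higher and 32.6% lower). Against stromal cells 5 were higher and 4 lower (55.8% of genes called, 24.6% higher and 31.2% lower), and against immune cells 8 were higher and 1 lower (69.4% of genes called, 34.1% higher and 35.4% lower). With so many genes called, the counts of members set these genes apart little, and the sizes of the differences carry more.

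Some EC differences did not hold under every alternative. *Hes1* against epithelial cells (0.30, edgeR adjusted p = 0.0335) was at adjusted p = 0.0958 with DESeq2. Without mouse 2 its edgeR adjusted p was 0.0549 and without mouse 4 it was 0.117. *Notch3* in ECs against epithelial cells (1.29, adjusted p = 0.00261) fell to 0.54 without the low-UMI clusters and sub-clusters (edgeR adjusted p = 0.354), and against immune cells (1.84, adjusted p = 0.000498) to 0.03 (edgeR adjusted p = 0.972). *Heyl* against epithelial cells (2.46, edgeR adjusted p = 0.000792) was at 1.27 without them (edgeR adjusted p = 0.0535). Without mouse 4, *Notch3* against epithelial cells was at 1.01 (edgeR adjusted p = 0.0575) and *Heyl* at 1.60 (edgeR adjusted p = 0.0547). TMM scaling put the median of all genes at 0.04 for ECs against epithelial cells and at -0.02 against immune cells. Without it the medians were 0.53 and 0.19, and the differences above are relative to the scaled medians.

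Within ECs, the 4 subtypes were compared in an edgeR fit over 7942 genes. *Notch2*, *Notch3*, and *Heyl* did not pass its filter on low counts, so 6 members were tested. Arterial-like ECs were above *Aplnr*-type ECs in *Notch1* by 0.95 (SE 0.11, adjusted p = 3.96e-07), *Notch4* by 0.70 (SE 0.11, adjusted p = 3.87e-05), *Hey1* by 1.46 (SE 0.14, adjusted p = 1.18e-08), and *Nrarp* by 2.06 (SE 0.18, adjusted p = 3.11e-09), all by edgeR. *Hes1* was at 148 ± 40.3 CPM in arterial-like and 169 ± 7.84 in *Aplnr*-type ECs, and the mice overlapped. *Hey2* gave 120 UMIs in arterial-like and 8 in *Aplnr*-type ECs (77.3 against 1.48 CPM). It passed the filter only through the arterial-like sums, so its levels are a description here and in every comparison of EC subtypes, with no test. Of the other 5 tested members 4 were called, all higher, beside 23.9% of all genes (12.6% higher and 11.3% lower). *Hey1*, *Dll4*, and *Efnb2* were among the leading genes of 1 arterial-like sub-cluster, although none of them was used to cluster or to name the cells.

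Against *Car4*-type ECs, arterial-like ECs were higher in *Hey1* by 3.91, *Nrarp* by 3.11, *Notch1* by 1.23, and *Notch4* by 1.05, each with an edgeR adjusted p of 1.26e-06 or less (4 of the other 5 called, and 28.2% of all genes, 14.5% higher and 13.6% lower). Against venous-like ECs, *Hey1* was higher by 5.32, *Nrarp* by 2.19, *Notch4* by 1.58, and *Notch1* by 1.22, each with an edgeR adjusted p of 2.39e-07 or less. Again 4 of the other 5 were called (15.2% of all genes, 7.11% higher and 8.08% lower). *Hey2* gave 9 UMIs in *Car4*-type and 0 in venous-like ECs, and its arterial-like level was at least 33.0-fold above the level that 3 counts would give in venous-like ECs. *Hes1* overlapped between mice in both comparisons.

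*Car4*-type ECs, the large capillary cells also known as aerocytes, were below *Aplnr*-type ECs in *Hey1* by -2.45 (SE 0.24, edgeR adjusted p = 5.21e-08) and in *Nrarp* by -1.05 (SE 0.30, edgeR adjusted p = 0.0160). These were 2 of 6 members in the fit, *Hey2* included, and 15.7% of all genes were called (8.29% higher and 7.43% lower). The *Nrarp* call was lost without mouse 2 (edgeR adjusted p = 0.0703), without mouse 3 (edgeR adjusted p = 0.0962), and with the pathway genes among the clustering genes (edgeR adjusted p = 0.0899). *Notch1* (328 against 404 CPM) and *Notch4* (161 against 207 CPM) were lower in *Car4*-type ECs in all 3 mice without passing the test (edgeR adjusted p = 0.129 and 0.0762). *Notch4* passed it under 5 of the alternatives, with differences of -0.41 to -0.88, and *Notch1* with no filter on cells (-0.36, edgeR adjusted p = 0.0358) and with log-normalization (-0.58, edgeR adjusted p = 0.00419). *Hey2* was at 6.36 CPM in *Car4*-type and 1.48 in *Aplnr*-type ECs from 9 and 8 UMIs, higher in all 3 mice. As it entered the fit through the arterial-like sums, this is a description with no test.

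Venous-like ECs were below *Aplnr*-type ECs in *Hey1* by -3.86 (SE 0.31, edgeR adjusted p = 1.13e-09) and in *Notch4* by -0.88 (SE 0.14, edgeR adjusted p = 4.93e-05). These were 2 of 6 members in the fit, *Hey2* included (0 UMIs against 8, a description), beside 22.2% of all genes (12.2% higher and 10.0% lower). *Notch1* (309 against 404 CPM) was lower in all 3 mice (edgeR adjusted p = 0.122), and *Nrarp* and *Hes1* overlapped between mice.

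**Figure D3:**
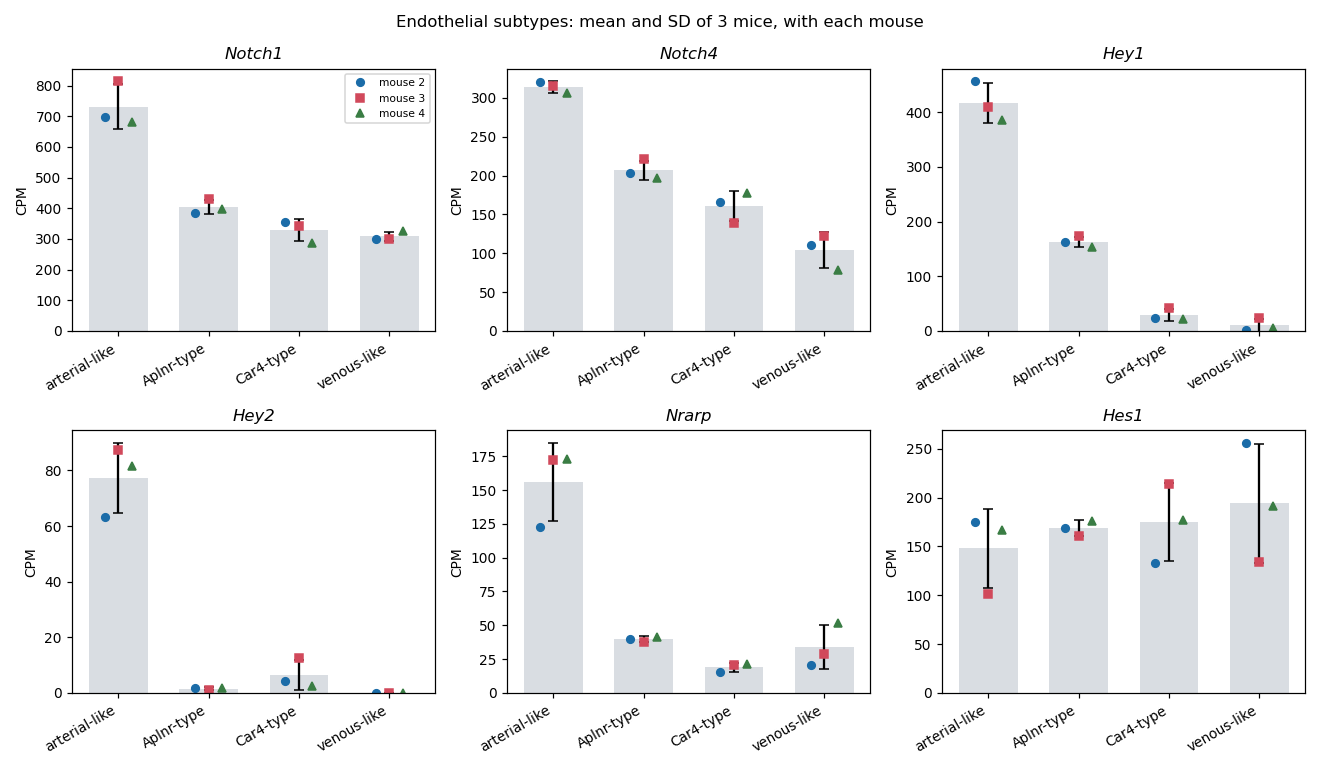
CPM of 6 genes in the 4 EC subtypes. Bars are means and error bars SDs of 3 mice, and symbols are single mice. *Notch1*, *Notch4*, *Hey1*, *Hey2*, and *Nrarp* are highest in arterial-like ECs in all 3 mice, and *Hes1* overlaps between all 4 subtypes.

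The EC subtypes were not uniform. Arterial-like ECs consisted of a sub-cluster led by *Cxcl12* and *Gja5* (104 cells) and another led by *Cytl1*, *Vwf*, and *Lyve1* (59 cells), of which *Vwf* also led the venous-like ECs. *Hey2* lay almost wholly in the second, which held 117 of the 120 arterial-like *Hey2* UMIs, at 162 ± 8.08 CPM against 3.71 ± 4.17 in the first (n = 3 mice). *Hey1* went the other way, at 565 ± 28.1 CPM in the *Cxcl12* sub-cluster and 252 ± 24.5 in the *Cytl1* sub-cluster. *Notch1* was at 834 ± 104 and 623 ± 56.1 CPM and *Nrarp* at 139 ± 35.3 and 175 ± 41.4, respectively. Among *Aplnr*-type ECs, a sub-cluster led by *Pcdh17*, *Gpihbp1*, and *Plvap* (172 cells) held 275 ± 15.7 CPM of *Hey1*, 504 ± 56.9 of *Notch1*, and 57.1 ± 5.57 of *Nrarp*. Its counterpart led by *Scn7a* and *Sema3c* (257 cells) held 89.4 ± 18.8, 343 ± 9.29, and 24.6 ± 9.91 CPM, respectively. The sub-clusters were noticed in the data, so these values are given without a test. Lymphatic-like cells numbered 23, and only 1 mouse had 10 or more.

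Among stromal cells, an edgeR fit over 10152 genes compared pericyte-like and SMC-like cells with fibroblasts and with the EC sums of the same mice. Pericyte-like cells were above SMC-like cells in *Notch1* by 3.30 (SE 0.19, adjusted p = 9.81e-14), *Notch2* by 1.97 (SE 0.22, adjusted p = 3.62e-08), *Notch3* by 1.65 (SE 0.18, adjusted p = 2.94e-08), *Heyl* by 0.94 (SE 0.14, adjusted p = 3.91e-06), *Nrarp* by 2.33 (SE 0.28, adjusted p = 1.50e-07), and *Hes1* by 0.79 (SE 0.20, adjusted p = 0.00269), all by edgeR. *Hey2* was lower in pericyte-like cells by -1.25 (SE 0.31, edgeR adjusted p = 0.00185), with all 3 mice below SMC-like cells. Levels of *Notch1* were 324, 283, and 300 CPM in pericyte-like and 24.5, 33.2, and 26.6 in SMC-like cells. *Notch4* gave 18 UMIs in pericyte-like and 8 in SMC-like cells (20.5 against 2.45 CPM). It passed the filter on low counts only through the EC sums. Its levels are therefore a description in every comparison of this fit, with no test. The 6 EC markers summed to 105 to 336 CPM in pericyte-like cells with none at 0, against 21.2 to 32.7 in SMC-like cells. The part of EC RNA in this difference was not tested. In all 7 members in the fit were higher and 1 lower of 9, *Notch4* included, beside 35.5% of all genes called (16.4% higher and 19.1% lower).

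Against *Col13a1*-type fibroblasts, pericyte-like cells were higher in *Notch3* by 6.20, *Heyl* by 3.26, *Notch1* by 2.94, and *Notch2* by 1.74, each with an edgeR adjusted p of 6.00e-07 or less. *Nrarp* was at 110 against 1.45 CPM (87 UMIs against 4) and *Hey2* at 46.1 against 5.89 (36 UMIs against 12). The *Col13a1*-type and myofibroblast-like sums alone would not have passed either gene through the filter on low counts. The levels of *Nrarp* and *Hey2* against these types are therefore a description, with no test. *Hey1* was lower in all 3 mice (-0.93, edgeR adjusted p = 0.205), and it passed with marked doublets removed (-1.85, edgeR adjusted p = 0.0380) and with log-normalization (-2.19, edgeR adjusted p = 0.0119). With *Hes1* (0.89, edgeR adjusted p = 0.00161) and *Notch4* 8 of 9 in the fit were higher, beside 31.7% of all genes called (14.7% higher and 17.0% lower). *Hes1* was at adjusted p = 0.0596 without mouse 4 (edgeR). *Notch4* is a description here, from 18 UMIs against 12, and it overlapped between mice. Against myofibroblast-like cells, which share the alveolar wall with pericytes, *Notch3* was higher by 6.16, *Notch1* by 3.99, *Heyl* by 3.68, and *Notch2* by 1.86, with edgeR adjusted p-values of 1.93e-08 or less. *Nrarp* was at 110 against 0.983 CPM (87 UMIs against 7). The pooled *Hey2* ratio was 130 from 36 UMIs against 3 (exact 95% interval of counting error, 41.2 to 661). Here too 8 of 9 in the fit were higher (29.2% of all genes called, 14.9% higher and 14.3% lower). They include *Nrarp*, *Hey2*, and *Notch4* as descriptions (*Notch4* at 20.5 against 4.28 CPM). *Hes1* (0.53, edgeR adjusted p = 0.0329) was at 0.36 without mouse 4 (edgeR adjusted p = 0.302) and at 0.56 without mouse 2 (edgeR adjusted p = 0.129).

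SMC-like cells were above *Col13a1*-type fibroblasts in 4 members in the fit, beside 37.8% of all genes called (19.0% higher and 18.8% lower). *Notch3* was higher by 4.55 (SE 0.29, adjusted p = 3.32e-13) and *Heyl* by 2.32 (SE 0.17, adjusted p = 1.13e-11), both by edgeR. The 4 include *Hey2* and *Nrarp* as descriptions. *Hey2* was at 101 against 5.89 CPM (330 UMIs against 12) and *Nrarp* at 20.1 against 1.45 (66 UMIs against 4). *Notch1*, *Notch2*, *Notch4*, and *Hes1* overlapped between mice, and *Hey1* was lower in all 3 mice without passing the test (edgeR adjusted p = 0.175).

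Pericyte-like cells differed from ECs in both receptors and targets. *Notch3* was higher by 6.94 (SE 0.24), *Heyl* by 6.40 (SE 0.20), *Notch2* by 4.24 (SE 0.24), *Hey2* by 1.73 (SE 0.39), and *Nrarp* by 1.01 (SE 0.23), with edgeR adjusted p-values of 0.000695 or less. *Hey1* was lower by -4.07 (SE 0.32, edgeR adjusted p = 2.48e-11). *Notch4* was at 20.5 against 198 CPM, given without a test because it passed the filter only through the EC sums. *Notch1* was lower by -0.46 (SE 0.14, edgeR adjusted p = 0.00883), a call that was lost without mouse 3 (edgeR adjusted p = 0.0622) or mouse 4 (edgeR adjusted p = 0.0905). The *Nrarp* call was lost without mouse 2 (0.86, edgeR adjusted p = 0.0516). Thus 5 members in the fit were higher and 3 lower of 9, *Notch4* included, beside 36.8% of all genes called (17.0% higher and 19.8% lower). *Hes1* (177 ± 35.8 against 169 ± 14.3 CPM) overlapped.

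**Figure D4:**
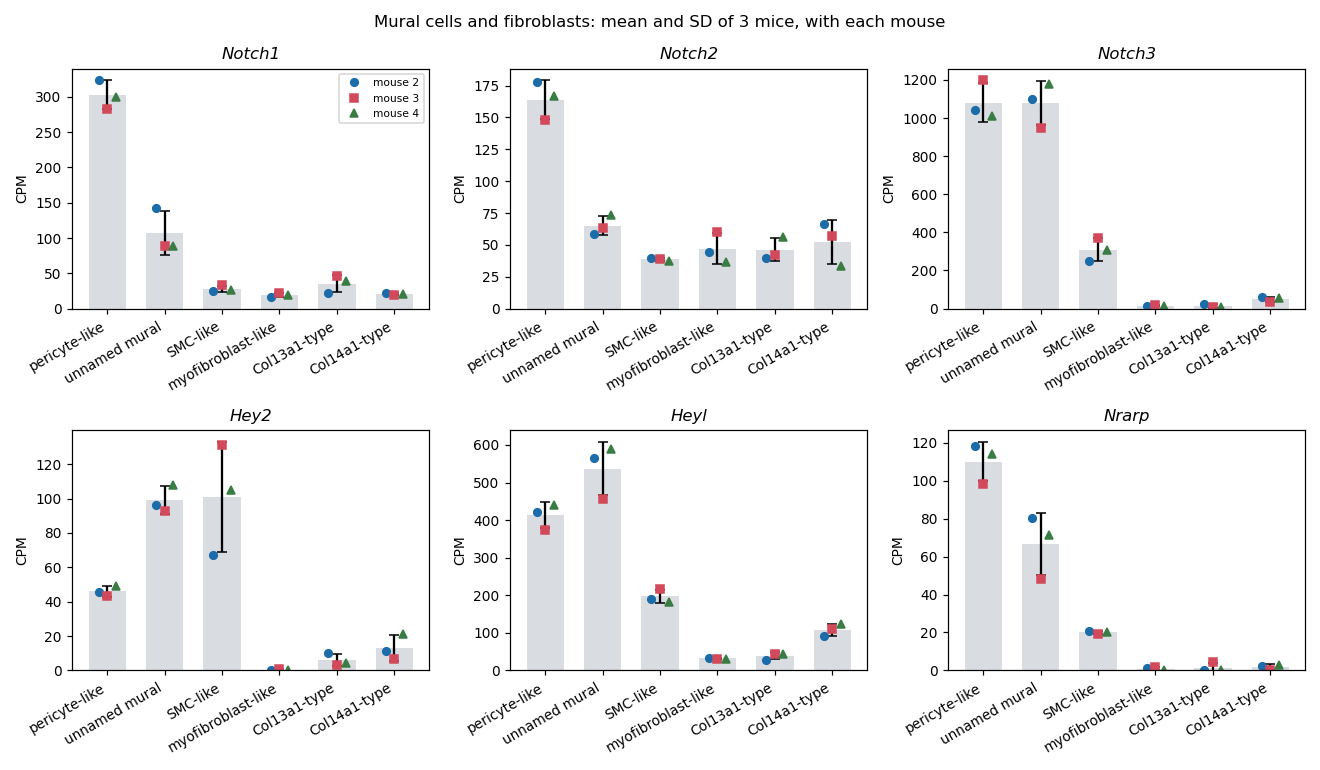
CPM of 6 genes in pericyte-like, unnamed mural, and SMC-like cells and in 3 types of fibroblasts. Bars are means and error bars SDs of 3 mice, and symbols are single mice. *Notch1*, *Notch2*, and *Nrarp* are highest in pericyte-like cells, *Notch3* in pericyte-like and unnamed mural cells, and *Hey2* in unnamed mural and SMC-like cells.

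SMC-like cells, too, held unlike sub-clusters. The larger, led by *Acta2*, *Myh11*, and *Pi15* (164 cells), held 360 ± 50.3 CPM of *Notch3*, 230 ± 17.1 of *Heyl*, and 116 ± 30.8 of *Hey2* (n = 3 mice). The smaller, led by *Actc1*, *Cnn1*, *Hhip*, and *Tnnt2*, numbered 36 cells with a median of 11888.5 UMIs, close to the 12113 of the larger. It had 17, 8, and 11 cells in mice 2, 3, and 4, so mouse 3 fell below the minimum of 10. Over its 36 cells, *Notch3* gave 1 UMI, *Hey2* 1 UMI, and *Heyl* none. With 0 of 36 cells holding a *Heyl* UMI, a share of cells with a UMI of up to 8.33% is allowed (3 cells, counting error only). Unnamed mural cells stood between pericyte-like and SMC-like cells in *Notch1* (142, 88.9, and 88.7 CPM) and *Nrarp* (80.1, 48.1, and 71.4 CPM).

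**Figure D5:**
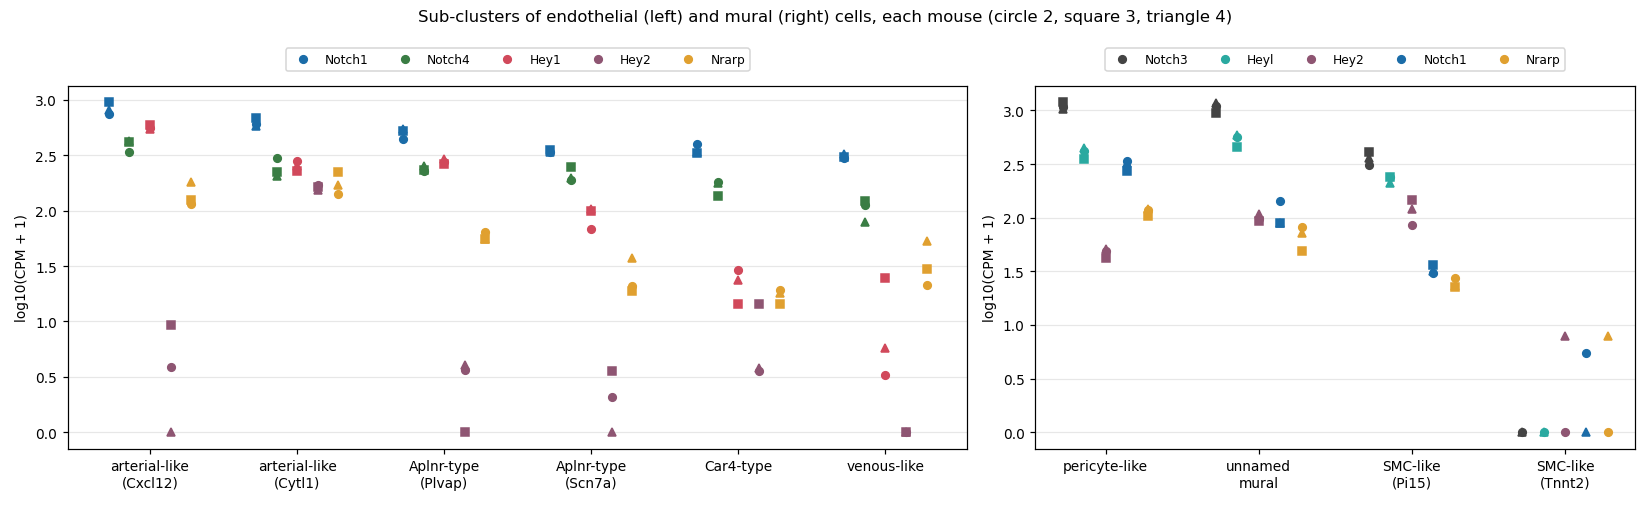
log10(CPM + 1) of 5 genes in EC sub-clusters (left) and of 5 genes in mural sub-clusters (right), with 1 symbol per mouse with at least 10 cells and the color giving the gene. *Hey2* sits near 2.2 in the *Cytl1* arterial-like sub-cluster and under 1 in its *Cxcl12* neighbor, and *Notch3* and *Heyl* fall to 0 in the small SMC-like sub-cluster led by *Tnnt2*.

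DLL4, a ligand of the Delta family, acts on receptors of neighboring cells. *Aplnr*-type ECs were divided by whether a *Dll4* UMI was found after each cell was thinned to 2000 UMIs (121 cells with and 340 without). The division sorts cells by the ligand they carry, not by the signal they receive. How it falls on the *Plvap* and *Scn7a* sub-clusters, which differ in *Hey1* (275 against 89.4 CPM), was not tested. *Hey1* was at 224, 208, and 240 CPM in cells with *Dll4* and at 109, 130, and 143 in cells without, in mice 2, 3, and 4. *Notch4* was at 287, 250, and 280 CPM with *Dll4* and at 180, 210, and 157 without. *Notch1* was at 447, 479, and 450 CPM with *Dll4* and at 344, 478, and 336 without. *Hes1* went the other way in means, at 170, 250, and 130 CPM with *Dll4* and at 230, 225, and 227 without (-0.43, edgeR adjusted p = 0.658). *Hey1* and *Notch4* did not overlap between the groups, and *Notch1* and *Hes1* did. *Nrarp* did not overlap either, at 53.2, 62.5, and 70.0 CPM with *Dll4* and at 35.2, 29.0, and 21.0 without. It rested on 15 and 19 UMIs and did not pass the filter on low counts, so it was not tested. *Notch2*, *Notch3*, *Hey2*, and *Heyl* were not tested either. None of the 4 members tested passed at adjusted p under 0.05, by edgeR or by DESeq2, beside 0.898% of 2560 genes (0.430% higher and 0.469% lower), and 2 of the 4 were at an unadjusted edgeR p under 0.05, as were 220 of the 2560 genes. *Hey1* differed by 0.82 (SE 0.25, unadjusted p = 0.00198, adjusted p = 0.130, edgeR) and *Notch4* by 0.64 (SE 0.22, unadjusted p = 0.00570, adjusted p = 0.265, edgeR). *Hey1* passed in other versions of this division. Its edgeR adjusted p was 0.00138 with another random draw, 4.58e-09 with cells thinned to 4000 UMIs, 1.14e-06 with no thinning, 0.00249 with no filter on cells, 0.0195 with marked doublets removed, and 0.0260 without mouse 2. Cells were thinned so that depth would not decide the division, and with no thinning depth can enter it. *Notch1* passed with log-normalization (0.72, edgeR adjusted p = 0.0270) and with cells thinned to 4000 UMIs (0.48, edgeR adjusted p = 0.0358).

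*Dll4* was at 470 ± 22.6 CPM in arterial-like, 172 ± 17.4 in *Aplnr*-type, 117 ± 15.7 in *Car4*-type, and 11.8 ± 8.29 in venous-like ECs. *Jag1* was at 173 ± 39.5 CPM in arterial-like and 159 ± 15.6 in venous-like ECs, with 130 ± 21.8 in SMC-like and 125 ± 65.3 in unnamed mural cells, and these 4 types overlapped between mice. *Dll1* had its highest mean in venous-like ECs (98.8 ± 11.1 CPM), and *Jag2* in *Car4*-type ECs (61.0 ± 5.42 CPM).

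The other 56 genes of the pathway, among them ligand partners, the glycosyltransferases of the Fringe family, proteases, nuclear cofactors, and turnover genes, were followed in the same fits. In ECs against epithelial cells, 32 were higher, 10 lower, and 10 not called of 52 tested, with a median difference of 0.29 against 0.04 over all genes. Of all genes, 66.3% were called there (33.7% higher and 32.6% lower). *Mfng*, a Fringe glycosyltransferase that tunes which ligand a receptor responds to, was at 112 CPM in ECs and 0.599 in epithelial cells (7.05, edgeR adjusted p = 2.24e-13). Against stromal cells, 20 were higher and 15 lower of 52 (median 0.02 against -0.06 over all genes, 55.8% of all genes called). *Dll4* was higher there by 7.08 (edgeR adjusted p = 3.79e-12) and *Mfng* by 6.78 (edgeR adjusted p = 3.70e-13). Against immune cells 29 were higher and 14 lower of 52 (median 0.40 against -0.02, 69.4% of all genes called). *Efnb2*, an arterial marker and Notch target, was higher than in immune cells by 6.49 (615 against 5.70 CPM, edgeR adjusted p = 1.67e-12).

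Within ECs, 43 pathway genes were tested. Arterial-like against *Aplnr*-type ECs gave 9 higher and 8 lower (median 0.05 against 0.02 over all genes, 23.9% of all genes called). *Psen2*, a catalytic subunit of the protease that frees the intracellular part, was at 107 against 32.1 CPM (1.80, edgeR adjusted p = 4.45e-08). *Efnb2* was at 1640 against 541 CPM (1.70, edgeR adjusted p = 7.85e-10). *Car4*-type against *Aplnr*-type ECs gave 3 higher and 6 lower (median -0.08 against -0.01, 15.7% of all genes called), with *Mfng* higher by 1.13 (edgeR adjusted p = 1.43e-06). Venous-like against *Aplnr*-type ECs gave 4 higher and 10 lower (median -0.13 against 0 over all genes, 22.2% of all genes called). Of these *Dll4* differed by -3.73 (edgeR adjusted p = 1.50e-10). Arterial-like ECs gave 11 higher and 9 lower against *Car4*-type (median 0.13 against 0.02, 28.2% of all genes called) and 7 higher and 5 lower against venous-like ECs (median 0.01 against 0, 15.2% of all genes called).

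In the stromal fit, 49 pathway genes were tested. *Dll1*, *Dll4*, and *Jag2* passed its filter on low counts only through the EC sums, so they enter the counts below as a description. Pericyte-like against SMC-like cells gave 11 higher and 5 lower (median 0.18 against -0.06 over all genes, 35.5% of all genes called). The 11 include *Dll4*, from 4 UMIs against 0. *Maml3*, a Mastermind coactivator, was at 195 against 35.1 CPM (2.32, edgeR adjusted p = 5.72e-12), and *Jag1* was lower by -1.98 (38.3 against 130 CPM, edgeR adjusted p = 2.90e-05). Pericyte-like cells gave 12 higher and 2 lower against *Col13a1*-type (median 0.21 against -0.02), 8 higher and 7 lower against myofibroblast-like (0.09 against -0.05), and 10 higher and 15 lower against ECs (0.07 against -0.08). Of all genes, 31.7%, 29.2%, and 36.8% were called in these comparisons, in the same order. *Neurl1b*, a ubiquitin ligase that acts on ligands, was at 75.7 CPM in pericyte-like and 2.93 in *Col13a1*-type cells, a description. SMC-like against *Col13a1*-type cells gave 11 higher and 10 lower (37.8% of all genes called). The higher include *Jag1* (130 against 2.67 CPM, 427 UMIs against 7), also a description. The lower include *Dll4* (0 UMIs against 9) and *Jag2* (0 UMIs against 5). In the division by *Dll4*, 21 pathway genes were tested and only *Efnb2* was called (838 against 467 CPM, 0.80, edgeR adjusted p = 0.000865), beside 0.898% of all genes.

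As a description, the mean log2(CPM + 5) of each member over 22 types was set beside that of 12170 other genes with at least 20 CPM in a type. The types share libraries and, within a class, much of their RNA, so no p-value is given. The genes most like *Notch3* were *Foxs1* (Pearson r = 0.972), *Parm1* (0.970), and *Aoc3* (0.933), and those most like *Heyl* were *Abhd11os* (0.977), *Gucy1a3* (0.954), and *Angpt2* (0.952). *Notch4* was most like *Sox18* (0.966), *Sox17* (0.957), and *Arhgef15* (0.956), and *Hey1* most like *Msx1* (0.921), *Sema3g* (0.921), and *Ackr4* (0.904). *Notch1* was most like *Stim2* (0.861), *Gja4* (0.848), and *Arap3* (0.847), *Hey2* most like *Sema5b* (0.867), *Pkia* (0.859), and *Prkg1* (0.858), and *Nrarp* most like *Crim1* (0.803), *Gm10687* (0.745), and *Gja4* (0.744). For *Hes1* these were *Tbc1d32* (0.931), *Bcl2l2* (0.887), and *Cul7* (0.881), and for *Notch2*, with the weakest likeness, *Prkcd* (0.739), *Serp1* (0.725), and *Glipr2* (0.715). Among the 9 genes themselves, *Notch3* and *Heyl* were the most alike (0.95), followed by *Notch3* and *Hey2* (0.80) and *Notch4* and *Hey1* (0.80).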

How the data were processed

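Whole lungs of 3 mice were dissociated and profiled by 10x 3' scRNA-Seq. The authors made the deposited count tables (UMIs per gene and cell, not normalized) with Cell Ranger 3.0.2, and mm10 is the build in the submitters' processing notes. How strand was treated is not given in the sources used here. The members and gene lists were chosen with earlier results of these data known.

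Cells were kept at 200 or more genes and 20% or less mitochondrial UMIs and clustered with Seurat 5.3.0 and sctransform 0.4.2 (3000 variable genes without the 9 members and 56 pathway genes, 30 components, resolution 0.8). Clusters and sub-clusters were named from fixed markers. The scoring of sub-clusters and the rule that left the mural sub-cluster unnamed were set after clusters were seen. Scrublet (scanpy 1.11.5) scored cells as doublets. Its automatic threshold marked 0.384% to 0.716% of the cells of a library. Instead, the highest scores were marked at an assumed rate, which gave 156 cells. These were kept, and removing them was an alternative. UMIs were summed per mouse and type (at least 10 cells) and tested with edgeR 4.0.16 (R 4.3.3; quasi-likelihood, TMM, low-count filter, Benjamini-Hochberg over all genes, threshold 0.05). Log2 differences are the first group minus the second. Each SE was back-calculated as the absolute log2 difference divided by the square root of the F statistic. Each mouse gave 1 sample per type, so the same animal pairs the types. Deviations of types of 1 mouse correlated by 0.0859 to 0.300 between classes, 0.0715 to 0.437 between EC subtypes, and -0.129 to 0.492 in the stromal fit. In simulated counts, 200 genes were given a log2 change of 2, and edgeR found 99.0% of them between ECs and epithelial cells (13640 genes) and 89.0% between pericyte-like and SMC-like cells (9477 genes). The changed genes were drawn from those with a mean over 20 UMIs per sum. The simulation set 1 spread for all genes and no pairing by mouse, so it does not speak to genes with fewer UMIs. Intervals and floors cover counting error only. All members were named, and of the pathway genes those among the 3 with the largest called differences in a comparison. Alternatives were DESeq2 1.42.0, other filters, normalizations, and resolutions, the replicate block, and leaving out each mouse.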

Additional observations from a re-analysis of the deposited data

Results flagged for a closer look

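Cells outside the named types held high levels of some members, and no test set them against a named type. The unnamed mural cells were, however, part of the stromal sums compared with ECs. They were also a group in the stromal fit, without a comparison of their own. In the unnamed mural sub-cluster (125 cells), *Notch3* was at 1080 CPM, *Heyl* at 537, and *Hey2* at 99.1 (means of 3 mice), against at most 1.11, 0.462, and 0.266 CPM, respectively, in B-cell-like cells of any mouse. In the unnamed low-UMI cluster of 452 droplets with EC-type RNA, *Hes1* was at 268 ± 32.6 CPM from 121 UMIs and *Hey1* at 211 ± 12.4 CPM from 95 UMIs, against at most 39.2 and 2.31 CPM in B-cell-like cells.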

How the results depend on the processing

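Of 82 member differences called by edgeR, 70 kept their direction and call under every alternative run, 12 lost the call under at least 1, and 0 turned direction. These counts include the *Hey2* values of arterial-like ECs and the *Notch4* values of pericyte-like cells, given above without a test. They also include the *Hey2* and *Nrarp* values of pericyte-like and SMC-like cells against fibroblasts, likewise given without a test. The fit with the mouse as a replicate block changed 0 of these calls. Leaving out the low-UMI clusters was chosen after seeing the data. The calls that it and other settings ended stand beside the results, except those of *Notch4* in the stromal fit. *Hes1* in pericyte-like against myofibroblast-like cells was also lost with marked doublets removed (0.44, edgeR adjusted p = 0.0873) and at resolution 0.4 (0.52, edgeR adjusted p = 0.0612). *Notch1* in SMC-like against *Col13a1*-type cells, not called, was -0.36, became 0.49 at resolution 0.4, and was called lower with log-normalization (-0.79, edgeR adjusted p = 0.00880) and at resolution 1.2 (-0.67, edgeR adjusted p = 0.0469). Members called in *Car4*-type against *Aplnr*-type ECs, 2 in the report, numbered 4 with the stricter filter on cells (at least 500 genes, at most 10% mitochondrial UMIs), 6 with no filter on cells, 5 with log-normalization, and 4 with pathway genes among the variable genes, and 1 to 2 without 1 mouse (1 without mouse 2 and 1 without mouse 3). The counts of 4 to 6 include *Hey2*, which is given above as a description only. In the division by *Dll4*, with 0 called in the report, 1 was called with no filter on cells, 1 with marked doublets removed, 1 (*Notch1*) with log-normalization, 1 with another random draw, 2 with no thinning, and 2 with cells thinned to 4000 UMIs, and 0 to 1 without 1 mouse (1 without mouse 2). With the stricter filter on cells, stromal cells held 78.0% of *Hey2* and 96.2% of *Heyl* UMIs, and with doublets removed, ECs held 86.8% of *Notch4* and 81.2% of *Hey1* UMIs. The cause of these changes was not tested. At 696 to 6906 UMIs per member, levels in small types rest on few UMIs.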
